A study of Rattus norvegicus with 18 samples.

Results

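The genes described here are 8 enzymes of heme synthesis and the mitochondrial carrier Slc25a38, 9 of the 18926 genes measured in rat liver across birth. They were picked by name through the gene symbols of the array, and each was covered by 1 transcript cluster, a probe set for a whole gene. Total RNA from liver of Sprague Dawley rats was measured at 6 ages with 3 arrays each (Affymetrix Rat Transcriptome 1.0), 18 in all. The groups were fetuses at embryonic day 21 (E21), removed surgically and killed before breathing, and pups at 30 min, 4 h, 12 h, 1 day and 7 days after a birth that was watched. All groups shared the strain and carried no treatment, and the series design gives 3 dams per age. The labels give neither the sex of the pups nor the number of pups behind a sample, so the p-values measure the spread between these samples.

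Heme, the iron porphyrin of hemoglobin and of the cytochromes, is made in a chain of steps that starts and ends in mitochondria. The first step joins glycine and succinyl-CoA into 5-aminolevulinate and limits the whole pathway. It is run by one of a pair of synthases: Alas1, present in all tissues and held back by heme in hepatocytes, and Alas2, made by red cell precursors and encoded on the X chromosome. Later steps use the same gene in every tissue. In the fetus the liver is the main site of red cell formation, and around birth that role passes to bone marrow and, in rodents, to the spleen. Fetal liver RNA therefore holds transcripts of hepatocytes and of erythroid cells together, and in bulk RNA fewer cells of a type and less RNA per cell cannot be told apart.

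Values are log2 of the deposited intensities, and a change is the difference of 2 age means on that scale, given ± its standard error from limma (n = 3 at each age). The threshold was 0.05 for p-values adjusted by Benjamini-Hochberg over all genes. Levels of different genes are not compared, since probe sets differ in brightness. Arrays of one age correlated over genes at 0.987 to 0.994, and arrays of different ages at 0.948 to 0.993. The mean of 24 erythroid markers (membrane proteins, transcription factors and receptors of red cell precursors) lay between −0.44 and 0.29 relative to its E21 mean on every array before 7 days except 4h replicate 3, at −0.91. No member fell to 5.2, the level under which 95% of the readings of 63 olfactory receptor genes lay, genes taken here as silent in liver. The lowest reading of a member was 6.56 and the highest 15.83.

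Before the values, promoter windows are shown for 4 of the 5 members whose RefSeq window begins at the outer edge of the gene. They represent both kinds of change described below. Alas1 and Alad did not fall past the threshold, and Urod and Fech fell. Each window runs from 250 bases before to 50 bases after the start in build GRCr8, and all 4 genes lie on the minus strand. They are chr8:115768593-115768892 (Alas1), chr5:80987852-80988151 (Alad), chr5:135705331-135705630 (Urod) and chr18:60248476-60248775 (Fech). Capitals mark 3 motifs on either strand: GATAA (the core bound by GATA factors such as the erythroid Gata1), CACCC (bound by KLF factors such as the erythroid Klf1) and GGGCGG (a GC box).
Alas1: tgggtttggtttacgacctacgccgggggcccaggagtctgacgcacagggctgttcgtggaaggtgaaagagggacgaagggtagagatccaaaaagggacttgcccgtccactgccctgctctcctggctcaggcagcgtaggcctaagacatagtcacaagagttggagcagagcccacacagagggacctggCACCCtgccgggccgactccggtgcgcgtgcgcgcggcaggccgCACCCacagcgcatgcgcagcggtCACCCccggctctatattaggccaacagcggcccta
Alad: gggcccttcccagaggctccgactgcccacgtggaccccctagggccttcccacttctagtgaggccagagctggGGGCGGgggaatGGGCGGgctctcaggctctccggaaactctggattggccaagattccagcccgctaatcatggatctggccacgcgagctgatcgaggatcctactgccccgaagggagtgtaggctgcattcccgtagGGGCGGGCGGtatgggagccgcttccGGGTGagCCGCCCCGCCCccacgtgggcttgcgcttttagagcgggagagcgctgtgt
Urod: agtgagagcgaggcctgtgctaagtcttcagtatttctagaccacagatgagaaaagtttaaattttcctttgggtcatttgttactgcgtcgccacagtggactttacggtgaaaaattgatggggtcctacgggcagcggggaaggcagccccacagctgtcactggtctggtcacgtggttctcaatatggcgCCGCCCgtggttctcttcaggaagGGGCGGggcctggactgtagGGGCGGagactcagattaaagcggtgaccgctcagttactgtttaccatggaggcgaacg
Fech: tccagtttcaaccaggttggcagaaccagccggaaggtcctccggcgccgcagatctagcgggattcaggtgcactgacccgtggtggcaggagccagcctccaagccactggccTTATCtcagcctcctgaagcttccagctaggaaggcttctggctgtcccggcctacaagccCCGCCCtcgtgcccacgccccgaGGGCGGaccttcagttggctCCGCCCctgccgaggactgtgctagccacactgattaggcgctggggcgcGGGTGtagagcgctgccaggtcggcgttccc
The Alas1 window held 3 CACCC, which occurs in 54.9% of 33469 windows of this length, and neither other motif. The Fech window held 1 GATAA, present in 26.5% of windows, with 1 CACCC and 3 GGGCGG, the last present in 33.1%. The Urod window held 3 GGGCGG and no GATAA or CACCC, and the Alad window held 6 GGGCGG, some of which share bases with the next, and 1 CACCC. No 2 different motifs shared bases in these windows. The window of Slc25a38 also begins at the outer edge and is not shown. It held 2 CACCC, 1 GGGCGG and no GATAA. The start sites of the windows listed for Alas2, Uros and Ppox lie 4800, 955 and 782 bases inside the gene, and these windows are not shown. These matches are descriptions of the letters in a window, and no binding was measured.

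Across the 6 ages 6 of the 9 members changed by limma's moderated F test, where 31.3% of all genes did: Alas2, Alad, Uros, Urod, Cpox and Fech. At 7 days 7 of the 9 were lower than at E21, where 10% of all genes were lower, and none was higher, against 12.8% of all genes. The median change of the members was −1.5, and that of all genes was 0.01. On 8 of the 9 members all 3 arrays of 7 days lay below all 3 of E21, a separation seen in 17.0% of all genes. The fall was placed late: between 1 day and 7 days 5 members fell (10% of all genes) and none rose (8.15%), and from E21 to 1 day the sizes of the 9 changes were between −0.92 and 0.35 with none past the threshold.

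**Figure D1:**
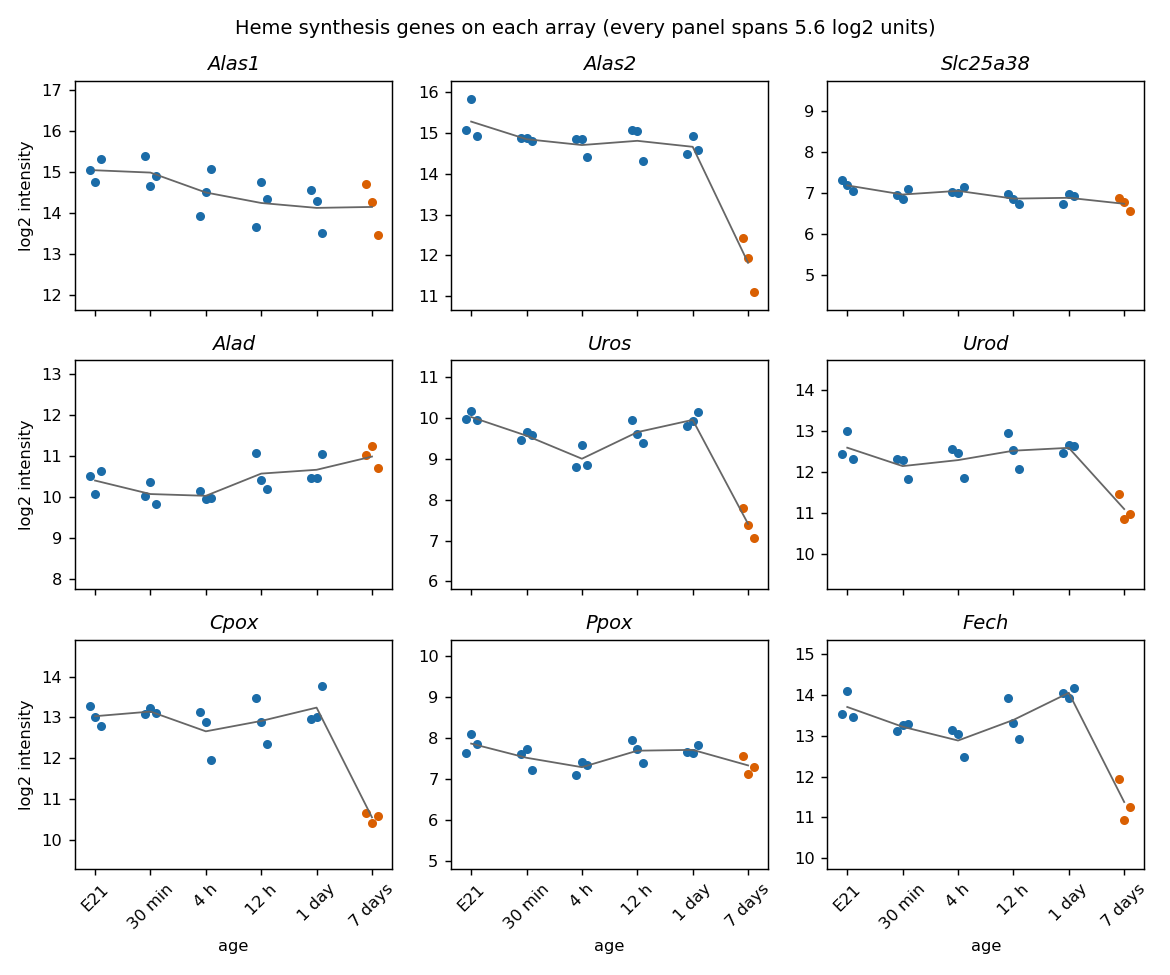
Log2 intensity of the 9 heme synthesis genes on each of the 18 arrays (points, 3 per age, ages on the x axis, 7 days in orange), with a line through the age means. All panels span the same number of log2 units; Alas2, Uros, Urod, Cpox and Fech step down at 7 days, and Alas1, Alad, Ppox and Slc25a38 do not show a step of that size.

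Alas2, the synthase of red cell precursors (transcript cluster TC0X00001581.rn.1), read 15.07, 15.83 and 14.92 at E21, 14.86, 14.87 and 14.80 at 30 min, and 14.85, 14.85 and 14.40 at 4 h. It read 15.06, 15.04 and 14.31 at 12 h, 14.47, 14.92 and 14.58 at 1 day, and 12.42, 11.94 and 11.10 at 7 days. The 3 arrays of 7 days were the lowest of all 18 and overlapped with no other age. Against E21 Alas2 had fallen by 3.45 ± 0.30, a 10.9-fold lower level (adjusted p = 1.66e-06 in limma), and the change against 1 day was −2.84 ± 0.30 (1.77e-05). In the order of age means (E21, 30 min, 12 h, 4 h, 1 day, 7 days) neighbouring ages were apart on all arrays only between E21 and 30 min and between 1 day and 7 days. The first of these gaps, −0.43 ± 0.30, did not pass (adjusted p = 0.83).

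Alas1, the synthase of hepatocytes and other tissues (TC0800003316.rn.1), read 15.06, 14.75 and 15.32 at E21, 15.39, 14.66 and 14.91 at 30 min, and 13.92, 14.51 and 15.07 at 4 h. It read 13.65, 14.75 and 14.33 at 12 h, 14.57, 14.29 and 13.51 at 1 day, and 14.71, 14.27 and 13.46 at 7 days. Its arrays were spread within each age, with standard deviations from 0.29 to 0.63, and no 2 neighbours in the order of age means were apart on all arrays. The change at 7 days was −0.90 ± 0.38 (95% interval −1.70 to −0.09, adjusted p = 0.109), and at 1 day −0.92 ± 0.38 (interval −1.72 to −0.11, adjusted p = 0.206), both with all 3 arrays under those of E21. Neither passed, and the intervals do not show that Alas1 stayed level. Over all ages the F test gave an adjusted p of 0.184. With 1 array left out at a time the 7-day value lay between −1.18 and −0.55, the latter without 7d replicate 3. It passed in none of these fits (lowest adjusted p = 0.0552 in limma).

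The contrast of both synthases was tested on the difference Alas2 minus Alas1 taken within each array and added to the fit as 1 further row. Relative to its E21 mean this difference was −0.22, 0.85 and −0.63 on the E21 arrays, −0.76, −0.03 and −0.34 at 30 min, and 0.70, 0.11 and −0.89 at 4 h. It was 1.18, 0.05 and −0.26 at 12 h, −0.33, 0.40 and 0.85 at 1 day, and −2.52, −2.56 and −2.59 at 7 days. The arrays of 7 days were apart from all others and lay within 0.07 of each other, although Alas1 and Alas2 each spread over more than 1 log2 unit there: the array with the highest Alas1 also had the highest Alas2. The change from E21 to 7 days was −2.56 ± 0.46 (95% interval −3.53 to −1.59, adjusted p = 0.000774 in limma) and that from 1 day to 7 days −2.86 ± 0.46 (0.000448). At the 4 earlier ages the change from E21 was between −0.38 and 0.33, none past the threshold (adjusted p from 0.82 to 0.992).

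**Figure D2:**
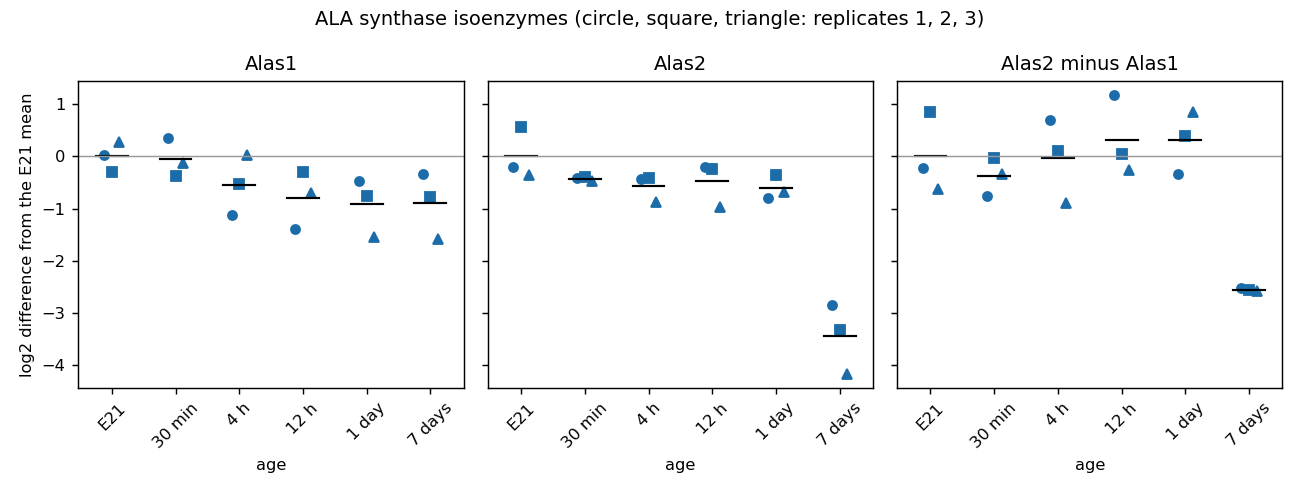
Log2 difference from the E21 mean for Alas1, Alas2 and the within-array difference Alas2 minus Alas1 on the 18 arrays, by age on the x axis, with a bar at each age mean and 1 symbol for each replicate number. At 7 days the difference lay between −2.59 and −2.52 on all 3 arrays, below every other array.

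Slc25a38, which carries glycine into mitochondria for the first step, changed by −0.45 ± 0.11 at 7 days (adjusted p = 0.00801). It read 7.31, 7.20 and 7.04 at E21 and 6.87, 6.77 and 6.56 at 7 days, with no overlap, and 6.73 to 7.14 at the ages between. Its 6 age means spanned 0.45 in all. The F test over all ages gave an adjusted p of 0.0511, so that this small shift passed in the 7-day comparison alone.

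Alad, the cytosolic enzyme that joins 2 molecules of 5-aminolevulinate into porphobilinogen, was the 1 member with a higher mean at 7 days. It read 10.50, 10.07 and 10.62 at E21, 10.02, 10.35 and 9.83 at 30 min, 10.15, 9.94 and 9.98 at 4 h, and 11.08, 10.42 and 10.20 at 12 h. At 1 day it read 10.47, 10.46 and 11.05 and at 7 days 11.01, 11.24 and 10.70. All arrays of 7 days lay above those of E21, by 0.59 ± 0.23 (95% interval 0.09 to 1.08), which did not pass (adjusted p = 0.0847). The F test over all ages passed (0.0254), and the lowest mean was that of 4 h (10.02) and the highest that of 7 days (10.98).

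Uros and Urod, the cytosolic enzymes that close the porphyrin ring and trim its side chains, both fell in the first week, and Uros also dipped at 4 h. Uros read 9.96, 10.16 and 9.94 at E21, 9.47, 9.65 and 9.57 at 30 min, 8.81, 9.34 and 8.85 at 4 h, and 9.95, 9.61 and 9.39 at 12 h. It read 9.79, 9.92 and 10.14 at 1 day and 7.80, 7.37 and 7.05 at 7 days. The arrays of 4 h lay under those of E21, of 30 min and of 12 h without overlap, and those of 1 day were back in the E21 range or just under it. At 4 h the change from E21 was −1.02 ± 0.19, a 2.03-fold lower level (adjusted p = 0.00701), the 1 call among the members at that age, where 1.81% of all genes were lower and 2.91% higher. It did not pass when the arrays of those 2 ages were fitted alone (0.0587). From 4 h to 12 h Uros rose by 0.65 ± 0.19 (0.0442), the 1 member called there (5.08% of all genes were higher and 3.82% lower). That call ended in 17 of 28 other fits, most of them just over the threshold (adjusted p up to 0.211).

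At 7 days Uros was 6.11-fold lower than at E21, a change of −2.61 ± 0.19 (adjusted p = 4.27e-07). Urod read 12.44, 13.01 and 12.32 at E21 and 11.45, 10.84 and 10.98 at 7 days, with 11.83 to 12.94 at the ages between. Its change was −1.5 ± 0.25 (0.000462), the smallest among the 5 genes that also fell between 1 day and 7 days (−1.5 ± 0.25 for Urod there, 0.000667).

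The mitochondrial end of the pathway held the other large falls and 1 small one. Cpox, which oxidises coproporphyrinogen, read 13.28, 13.01 and 12.80 at E21, 12.95, 13.00 and 13.77 at 1 day, and 10.66, 10.43 and 10.58 at 7 days. Fech, which inserts iron into protoporphyrin, read 13.54, 14.10 and 13.46 at E21, 13.11, 13.25 and 13.29 at 30 min, and 13.13, 13.03 and 12.48 at 4 h. It read 13.91, 13.32 and 12.92 at 12 h, 14.05, 13.93 and 14.16 at 1 day, and 11.95, 10.93 and 11.25 at 7 days. The arrays of 7 days overlapped with no other age in either gene, and Fech was lower at 30 min and 4 h than at E21 on all arrays, by −0.48 ± 0.27 and −0.82 ± 0.27, neither past the threshold (adjusted p = 0.755 and 0.102). At 7 days Cpox was −2.47 ± 0.30 against E21 (2.88e-05) and −2.68 ± 0.30 against 1 day (2.71e-05). Fech was −2.32 ± 0.27 against E21 (1.99e-05) and −2.67 ± 0.27 against 1 day (1.22e-05). Both genes had their highest age mean at 1 day, 13.24 and 14.05, and no age between 1 day and 7 days was sampled. Neither mean differed from E21 past the threshold, at 0.21 ± 0.30 for Cpox (0.81) and 0.35 ± 0.27 for Fech (0.584). For Cpox only the array at 13.77 lay above the E21 range.

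Ppox, which oxidises protoporphyrinogen between these steps, read 7.62, 8.10 and 7.86 at E21, 7.10, 7.42 and 7.33 at 4 h, and 7.56, 7.12 and 7.30 at 7 days. Its change at 7 days was −0.53 ± 0.17 (adjusted p = 0.0364), a call that ended without E21 replicate 2 (0.159), E21 replicate 3 (0.0778), 7d replicate 2 (0.151) or 7d replicate 3 (0.0899), and with only the arrays of those 2 ages fitted (0.0636). Its F test did not pass (0.0779), and its lowest age mean was that of 4 h (7.28).

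Before 7 days the fall of Uros to 4 h and its rise to 12 h were the calls among the members in the comparisons made. At 30 min limma called none of the 9 and 0% of all genes. An unadjusted p under 0.05 was found for 1 member and for 1392 of the 18926 genes. 8 of the 9 changes were negative, with a median of −0.35 against −0.01 for all genes, and in Alas2, Uros, Urod and Fech all arrays lay under those of E21 (6.77% of all genes). At 4 h all 9 changes were negative, with a median of −0.54 and Uros alone past the threshold, and again 4 members lay under E21 on all arrays (10.2% of all genes). The erythroid marker mean was −0.33 at 4 h, with 4h replicate 3 the lowest. At 12 h and 1 day limma called no member, where 2.08% and 1.71% of all genes were called lower (3.86% and 3.37% higher). There 1 and 2 members had an unadjusted p under 0.05, as did 3352 and 3331 of the 18926 genes.

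The erythroid markers gave the change of red cell precursor transcripts in the same arrays. All 24 were lower at 7 days than at E21 (10% of all genes), with a median of −2.83 and a range from −0.59 to −5.33. Among them the change was −5.33 ± 0.40 for Ermap, a protein of the red cell membrane, −4.97 ± 0.45 for Rhag, an ammonia channel of the same membrane, and −4.77 ± 0.39 for the transcription factor Gata1. Before 7 days 1 marker was called, lower at 4 h (1.81% of all genes). Their mean lay at −2.73, −3.30 and −3.24 relative to E21 on the 7-day arrays and at −0.05 on average at 1 day, so that it stepped down at the same age as Alas2, Uros, Urod, Cpox and Fech. The falls of these 5 lay inside the range of the markers: 10 of the 24 markers fell more than Alas2, 13 more than Uros, 13 more than Cpox, 14 more than Fech and 20 more than Urod. Ppox and Slc25a38 fell less than every marker.

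**Figure D3:**
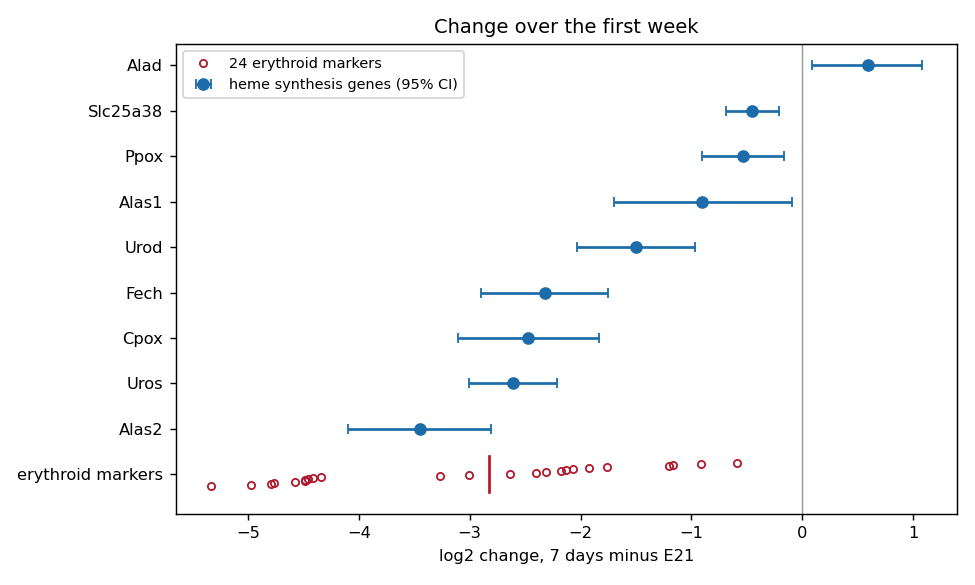
Log2 change from E21 to 7 days (x axis) of the 9 heme synthesis genes with the 95% interval of limma, and of each of the 24 erythroid markers as open circles with their median as a bar. Alas2 lay at −3.45, inside the range of the markers, and Alad at 0.59, above all of them.

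Each member was then set against the mean of the 24 markers within each array. The change of Alas2 from E21 to 7 days differed from that of the marker mean by −0.36 ± 0.23 (95% interval −0.85 to 0.13, adjusted p = 0.318 in limma), and that of Uros by 0.48 ± 0.20 (interval 0.06 to 0.90, adjusted p = 0.101). The other 7 differed past the threshold, all towards a smaller fall or, for Alad, a higher mean: Cpox by 0.62 ± 0.18 (0.0225), Fech by 0.77 ± 0.15 (0.00135), Urod by 1.59 ± 0.16 (4.56e-06) and Alas1 by 2.20 ± 0.53 (0.0068). Ppox came to 2.56 ± 0.25 (4.66e-06), Slc25a38 to 2.64 ± 0.23 (1.4e-06) and Alad to 3.68 ± 0.30 (9.45e-07). At the 4 earlier ages no member differed past the threshold from the marker mean. These sizes depend on the markers: the 12 with an E21 mean of at least 10 fell by a median of −4.49 and the 12 dimmer ones by −1.99. Against the brighter 12 Alas2 fell less, by 0.81 (adjusted p = 0.0266), and all 9 members differed. The mean of the 24 markers itself changed by −3.09 and the median of all genes by 0.01, so a gene that stayed level would also lie far above it. The share of all genes that differ from the marker mean was not counted, and these counts are therefore not a trait of the members.

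Markers of other cells were counted in the same comparison, where 10% of all genes were lower and 12.8% higher. The neutrophil marker Ltf and the B cell markers Ms4a1 and Igll1 had all age means under 5.2, the olfactory receptor level. A fall of these genes could not be read. All 7 megakaryocyte markers and 8 of 10 neutrophil markers were lower, with medians of −5.20 and −2.77. The first of these medians was the change of Gp5, whose 7-day mean of 5.11 lay under 5.2, as did that of Gp1ba (4.98). The sizes of these falls are therefore uncertain. Of 5 B cell markers 1, Cd79b, was lower (−0.42, a call that ended without 4 of the 6 arrays compared, adjusted p up to 0.112). Of the macrophage, endothelial and stellate markers 10 of 12, 6 of 8 and 3 of 7 were higher, with medians of 1.67, 1.21 and 1.01. Hepatocyte markers had a median of −0.01, 4 of 11 higher and 2 lower, and their mean lay between 16.61 and 17.10 on all 18 arrays. That median was the change of Alb, Ahsg, Fgb and Serpina1. Alb and Ahsg read 19.92 to 19.93, the top of the scale, and Fgb had age means of 19.77 to 19.89. Other markers ranged from −3.80 for Apoa2 to 3.88 for Cyp2e1. The flat median and mean therefore do not show that hepatocyte transcripts stayed level. The part of these cell types in the members' changes was not tested.

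**Figure D4:**
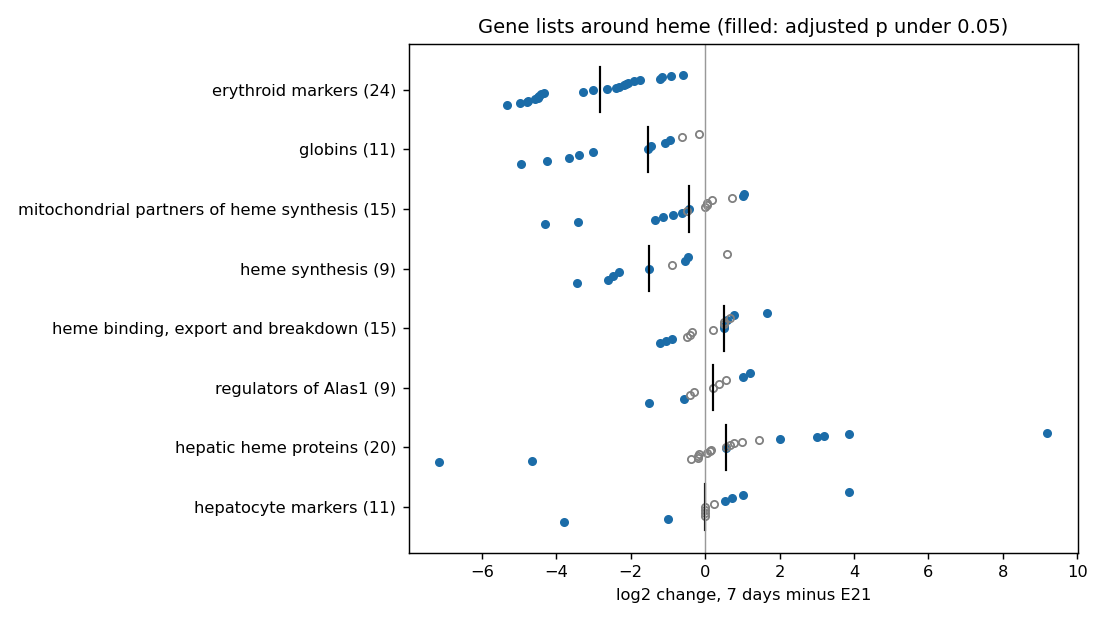
Log2 change from E21 to 7 days (x axis) of every gene of 8 lists, with filled points past the threshold, open points not past it and a bar at the list median (number of genes in brackets). The erythroid markers had a median of −2.83, the globins −1.53, the heme synthesis genes −1.50 and the list of hepatic heme proteins, which includes the reductase Por, 0.56.

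Genes that supply the mitochondrial steps changed in both directions. Of 15, 7 were lower and 2 higher at 7 days (10% and 12.8% of all genes), with a median of −0.44 against 0.01 for all genes. Slc25a37, the iron importer of red cell mitochondria, changed by −4.30 ± 0.37 (adjusted p = 1.46e-06) and Abcb10, a mitochondrial transporter that stabilises it, by −3.41 ± 0.29 (1.2e-06). Tmem14c, a porphyrin transporter of erythroid mitochondria, fell by 1.13 ± 0.19 (0.000556), and Isca1, which assembles iron-sulfur clusters, fell by 1.34 ± 0.10 (4.27e-07). The 2 that rose, chosen after their values were seen, were Abcb6, a porphyrin transporter, by 1.03 ± 0.18 (0.00059), and Sucla2, a subunit of succinyl-CoA synthetase, by 1.05 ± 0.17 (0.000312). Both were already higher at 1 day, by 1.02 ± 0.18 (0.00405) and 0.71 ± 0.17 (0.0225). The call of Sucla2 at 1 day ended without E21 replicate 2 (0.116), 1d replicate 1 (0.0909) or 1d replicate 3 (0.0635).

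Of the 11 globin entries, the erythroid users of heme with their chaperone, 9 were lower at 7 days and none higher (10% and 12.8% of all genes). At 12 h 1 was lower (2.08% of all genes), and at 1 day 1 was lower (1.71%). The 2 not past the threshold at 7 days were Hba-a3, an alpha globin, and Hbz. Hba-a3 had means of 16.66 at E21 and 16.5 at 7 days (−0.16 ± 0.26, adjusted p = 0.757 in limma). Hbz had all age means under 5.2, the olfactory receptor level, with 4.4 at E21. Its change of −0.62 ± 0.24 (0.078) could therefore not be read. Ahsp, the chaperone of alpha globin, changed by −4.96 ± 0.47 (adjusted p = 3.11e-06), Hbq1b, a theta globin, by −3.66 ± 0.33 (2.41e-06), and the embryonic Hbe1 by −4.24 ± 0.79 (0.00112). Hbe1 read 10.15, 13.21 and 8.56 at E21, and without E21 replicate 2 its change was −2.96, 7.77-fold lower (0.00105). Hbb, an adult beta globin, changed by −3.40 ± 0.25 (4.27e-07). The beta globin genes are close copies whose probes may share signal, and Hbb-b1 read 19.88 at E21, near the top of the scale. The change of Hbb-b1, −1.53 ± 0.1, was also the median of the list, and compression near the top of the scale was not tested.

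The list of hepatic heme proteins did not fall as a group. It also holds Por, the reductase of cytochromes P450 and not a heme protein, and genes not particular to hepatocytes, such as Cycs. Of its 20 genes, 6 were higher and 2 lower at 7 days, where 12.8% of all genes were higher and 10% lower, with a median of 0.56. Por was not among those called (1.00 ± 0.41, adjusted p = 0.0962). Cyp1a2, a cytochrome P450 of drug oxidation, rose by 9.20 ± 0.85 (adjusted p = 2.76e-06) and Cyp2e1, which oxidises ethanol, by 3.88 ± 1.17 (0.0247). The call of Cyp2e1 ended without any 1 of 5 of the 6 arrays compared, and without E21 replicate 2 its change was 2.53 (0.133). Cyp7a1 and Cyp8b1, enzymes of bile acid synthesis, changed by −7.14 ± 1.38 (0.00146) and −4.65 ± 0.73 (0.000294). Among 15 genes that bind, export or break down heme, 5 were higher and 3 lower (12.8% and 10% of all genes), with a median of 0.50. Cd163, the macrophage receptor for hemoglobin, rose by 1.66 ± 0.25 (0.000177). Blvrb, a reductase abundant in red cells, changed by −1.2 ± 0.26 (0.00368), Bach1, a repressor that binds heme, by −1.05 ± 0.17 (0.000316), and Flvcr1, a heme exporter, by −0.89 ± 0.16 (0.00101).

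Factors known to act on Alas1 were called at 4 h, when Alas1 itself was −0.54 ± 0.38 (95% interval −1.35 to 0.26, adjusted p = 0.545). Of 9 such genes 4 were higher at 4 h and none lower (2.91% and 1.81% of all genes), with a median of 0.81, and 2 were higher and 2 lower at 7 days (12.8% and 10%). Ppargc1a, a coactivator that in mouse liver induces Alas1 during fasting, rose by 3.32 ± 0.57 at 4 h (0.00446) and fell by 4.85 ± 0.57 from 4 h to 12 h (9.31e-05). Foxo1, which acts with it, rose by 0.99 ± 0.13 at 4 h (0.000887). These 2 were chosen after their values were seen. Nr3c1, the glucocorticoid receptor, rose by 1.91 ± 0.28 at 4 h (0.00176), and Ppargc1b, a relative of Ppargc1a, by 1.79 ± 0.36 (0.0102), a call that ended without E21 replicate 2 (0.0638) or 4h replicate 2 (0.0591). Nr1d1, a clock repressor of Alas1, rose by 2.76 ± 0.32 from E21 to 12 h (0.000178). At 7 days Hnf4a, a hepatocyte transcription factor, was higher by 1.01 ± 0.26 (0.0113) and Nr1d1 by 1.21 ± 0.32 (0.013), and Ppargc1b changed by −1.52 ± 0.36 (0.00556). The calls at 7 days ended without E21 replicate 2 for Hnf4a (0.0532), and without E21 replicate 2 (0.0535), 7d replicate 1 (0.0639) or 7d replicate 2 (0.0644) for Nr1d1.

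The genes whose pattern was most like Alas2 were sought among 3224 whose age means spanned at least 1 log2 unit. Over the 18 arrays Pearson's r was 0.980 for Hbq1b, 0.976 for Ybx3, 0.976 for Cdc25b, 0.972 for Tmod1, a cap of actin filaments in the red cell skeleton, and 0.971 for Hemgn, a nuclear protein of erythroid cells. Over the 15 arrays before 7 days r was lower, 0.618 to 0.779 for these 5. Within the pathway r with Alas2 was 0.932 for Uros, 0.912 for Cpox, 0.907 for Urod and 0.883 for Fech, and over the 15 earlier arrays 0.468, 0.357, 0.660 and 0.429. For Alas1 the 5 genes were Sult1a1 (0.784), a sulfotransferase, Echdc3 (0.781), Adhfe1 (0.779), Acsm3 (0.778) and Clybl (0.775), and over the 15 earlier arrays r was 0.741 to 0.818. Alas1 and Alas2 correlated at 0.368, and at 0.119 over the earlier arrays. These values describe arrays that share age and cell makeup, and no test was made on them.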

How the data were processed

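Rat liver RNA was measured on 18 Affymetrix arrays, 3 at each of 6 ages. The deposited values were linear intensities per transcript cluster (4.24 to 999969, array medians 61.9 to 65.5). RMA and Affymetrix Expression Console 1.0 are named in the submitters' processing notes, without their order, and the annotation release was not given in the sources used here. Between 272 and 328 features per array lay above 65535, the limit of a 16-bit scanner, so folds are those of the deposited scale. Of 24753 features 19837 had 1 gene symbol, 420 several and 4496 none here. The RefSeq gene table held 19230 of the identifiers and replaced 1 symbol. The brightest feature was kept for the 800 genes with several, leaving 18926 genes.

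The log2 of the deposited intensities was modelled in limma 3.58.1 (R 4.3.3) with one mean per age over the 18 arrays (12 residual and 3.05 prior degrees of freedom), two-sided, with Benjamini-Hochberg adjustment. Genes of 14 lists were counted. The naming rule took every member, up to 4 genes per list that passed the F test, by the size of the 7-day change, and the 5 genes most like Alas1 and Alas2. Markers of other cell types are given as counts. The members and lists were chosen with earlier results of these data known. The fit was tested on simulated data. Replicate numbers have no stated meaning. Same-numbered arrays correlated in their deviations over 0.1 in all 3 pairs for 2 of the 9 comparisons, and no block was used in the reported fit. These 2 were 4 h against E21 (0.107 to 0.292) and 12 h against 4 h (0.15 to 0.298). They are also the comparisons that hold the calls of Uros before 7 days. Promoter windows came from RefSeq (8 of 9 members; Cpox had none in the table used).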

Additional observations from a re-analysis of the deposited data

How the results depend on the processing

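Across 10 other settings and 18 fits that each left out 1 array, the counts of members called stayed within 1.5 times the reported ones. The 6 members changed over the ages came to 5 to 8 under the other settings and 5 to 7 without 1 array, and the 7 lower at 7 days to 6 or 7 in both. The 8 calls against E21 over the 5 later ages came to 6 to 9 and 7 to 9, and the 6 calls between successive ages to 5 to 9 and 5 to 6. The difference Alas2 minus Alas1 passed at 7 days in all of them, from −2.67 to −2.52, and from −2.87 to −2.13 without 1 array (highest adjusted p = 0.00515). The falls of Alas2, Uros, Urod, Cpox and Fech at 7 days passed in all of these fits, with Alas2 between −3.75 and −3.09. With the replicate number as a block the 7-day difference was −2.56 (adjusted p = 0.00121), 7 members were lower at 7 days, and the rise of Uros from 4 h to 12 h missed the threshold (0.0515). That rise ended in 17 of the 28 fits (highest adjusted p = 0.211, without 12h replicate 1). Alad at 7 days passed without 12h replicate 1 (0.0458). With the first array of E21 and the last of 30 min and of 4 h removed at once, Uros at 4 h was −0.98 (0.0334). Against the erythroid marker mean, Cpox missed the threshold without E21 replicate 2 (0.114), 7d replicate 2 (0.078) or 7d replicate 3 (0.0901), with 16 added before log2 (0.0762) and without those 3 arrays (0.054), and Uros passed without E21 replicate 3 (0.0331) or 4h replicate 1 (0.0297). With the 12 brighter markers alone, a choice made after the data were seen, Alas2 turned from −0.36 to 0.81 and 9 members differed in place of 7. Slc25a38 and Ppox had the dimmest readings of the members, down to 6.56 and 7.10 against a background level of 5.2, and compression of dim signals was not tested.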
